A study of Mus musculus with 10 samples.

Results

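Agap2 and Arid4b were followed through the H4K20me1 and Pol II S2P CUT&RUN data of cultured muscle stem cells (MuSCs) as the 2 genes of interest among 18256 genes that were listed with a peak for either antibody. Both were taken by gene symbol: every peak listed with one of them was used, singly and summed per gene, which gave 1 H4K20me1 peak and 4 Pol II S2P peaks for Agap2 and 4 H4K20me1 peaks and 2 Pol II S2P peaks for Arid4b, 11 peaks in all. MuSCs are the Pax7-expressing stem cells that repair skeletal muscle. In CUT&RUN an antibody directs a nuclease to the bound chromatin, and the released fragments are sequenced. The score of a peak is the amount of such fragments over its whole length after normalisation to spiked-in fly DNA, so levels of different genes are compared here only per kb, and a summed score of one gene less that of another is used only for how it differs between groups. In all, 44925 H4K20me1 peaks and 51322 Pol II S2P peaks carried a score in each library of their antibody. The neighbouring genes within 100 kb that had a peak, 13 in number, served for comparison. The study named Agap2 as an oncogene and Arid4b as a tumour suppressor among genes that gained R-loops after loss of Kmt5b, and the question here was how the histone mark and the elongating polymerase on both genes differed between the genotypes.

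The control cells (Ctrl) carried Pax7CreERT with wild-type Suv4-20h1, the older name of Kmt5b, and the mutant cells (sKO) carried Pax7CreERT with Suv4-20h1KO. Both groups thus held the same tamoxifen-inducible Cre, which is driven from the Pax7 locus and acts only in cells that express Pax7, and per the study's methods the adult C57BL/6 donor mice were treated with tamoxifen before MuSCs were isolated and grown in culture. Each antibody had 2 Ctrl and 2 sKO libraries, so 8 of the 10 libraries of the series were used, and the 2 IgG controls are left out of what follows. The study describes the libraries of each antibody as biological replicates, but the labels do not say whether each came from 1 animal or a pool. The p-values thus refer to libraries and not to animals. In the limma fits to the deposited scores, the spread came in effect from the trend over all features of similar mean score. The libraries of a single gene added almost nothing to it. A scale difference between libraries is shared by all genes, and 99.6% of genes had a positive H4K20me1 change. Small limma p-values therefore serve for calling and do not measure the strength of evidence for a genotype effect on 1 gene. Summed scores over all peaks for H4K20me1 were 15218720 and 20432644 (Ctrl) against 32194136 and 35046570 (sKO), and for Pol II S2P they ran from 3257665 to 4885638. Pol II S2P peaks were listed with 5 of 7 satellite cell and myogenic markers, with summed scores of 4753 and 5221 (Ctrl) against 5571 and 3683 (sKO). Among them were Pax7 (274 and 356 in Ctrl, 355 and 332 in sKO) Des (2262 and 2635 in Ctrl, 3212 and 1987 in sKO) and the myogenic transcription factor gene Myod1 (1329 and 1110 in Ctrl, 887 and 649 in sKO), of which only Myod1 separated the groups, with sKO below. The share of all genes that separated with sKO below was not counted, so this does not set Myod1 apart. What part the Myod1 difference has in the results was not tested. Of 9 markers of endothelial cells, leukocytes and fibro-adipogenic cells, 2 had such peaks, with sums of 945 and 1071 (Ctrl) against 1455 and 924 (sKO), which were Pecam1 (82 and 119 in Ctrl, 147 and 84 in sKO) and Cd68 (863 and 952 in Ctrl, 1308 and 840 in sKO). Kmt5b itself had summed Pol II S2P scores of 24 and 62 (Ctrl) against 48 and 22 (sKO), which overlapped. These sums do not measure the excised exons and therefore did not check the labels.

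H4K20me1 is the monomethyl mark that KMT5A places on lysine 20 of histone H4, and KMT5B converts it into the dimethyl mark. Over gene bodies the monomethyl mark is known to accompany transcription, and RNA polymerase II that is phosphorylated at serine 2 of its C-terminal repeats (Pol II S2P) marks elongation. An R-loop is an RNA-DNA hybrid with a displaced DNA strand, and it forms more readily where the displaced strand is rich in G. AGAP2, also called PIKE, is a GTPase with an Arf GTPase-activating domain that enhances PI3K and AKT signalling. ARID4B is a DNA-binding subunit of the SIN3-HDAC corepressor complex. No R-loop measurement is part of these data.

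The sequences in front of both starts and in the short intronic Pol II S2P peak of each gene are shown because they give the base composition on which the candidates can be compared. All are on the plus strand, which is the coding strand of both genes, and runs of at least 4 G (GGGG or longer) are in capitals. The 250 bases before the RefSeq start (GRCm38.p6) of Agap2 lie at chr10:127078657-127078906 and those of Arid4b at chr13:14063534-14063783. The Pol II S2P peak of Agap2 at chr10:127081593-127081828 and that of Arid4b at chr13:14180027-14180259 each lie within an intron of the main coding transcript.
Agap2 upstream: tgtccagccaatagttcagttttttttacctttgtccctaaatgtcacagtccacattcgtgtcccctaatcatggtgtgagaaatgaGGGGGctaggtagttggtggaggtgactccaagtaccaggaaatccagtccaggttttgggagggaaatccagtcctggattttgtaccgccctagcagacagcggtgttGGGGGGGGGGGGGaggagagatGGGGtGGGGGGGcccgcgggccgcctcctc
Arid4b upstream: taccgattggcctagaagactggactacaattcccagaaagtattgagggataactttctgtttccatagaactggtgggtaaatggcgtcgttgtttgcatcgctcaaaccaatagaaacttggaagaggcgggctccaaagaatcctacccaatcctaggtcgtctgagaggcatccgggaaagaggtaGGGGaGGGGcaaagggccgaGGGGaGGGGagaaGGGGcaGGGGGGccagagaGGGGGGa
Agap2 intronic Pol II S2P peak: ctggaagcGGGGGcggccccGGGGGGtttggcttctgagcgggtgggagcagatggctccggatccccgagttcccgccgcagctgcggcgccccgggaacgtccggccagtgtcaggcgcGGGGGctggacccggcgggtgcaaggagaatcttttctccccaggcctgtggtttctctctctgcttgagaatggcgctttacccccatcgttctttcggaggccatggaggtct
Arid4b intronic Pol II S2P peak: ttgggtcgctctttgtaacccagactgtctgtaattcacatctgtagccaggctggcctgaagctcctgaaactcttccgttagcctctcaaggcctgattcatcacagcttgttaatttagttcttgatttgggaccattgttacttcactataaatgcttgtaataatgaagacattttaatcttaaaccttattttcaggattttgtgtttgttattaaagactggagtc

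Both upstream windows were rich in G on the coding strand, and the gene bodies differed. The window of Agap2 held 4 such runs, the longest of 13 G, and that of Arid4b held 7, the longest of 6 G. Over 31365 RefSeq starts on the autosomes, 63.5% held at least 1 run of GGGG in the same 250 bases on the coding strand, 12.1% held as many as Agap2 and 2.29% as many as Arid4b. On the opposite strand, where such a run reads as CCCC on the coding strand, Agap2 had 1 run and Arid4b had 0. The GC content of the 2 windows was 56% and 54%, against a median of 52.4%. In the 1000 bases after the start the GC content was 71.1% in Agap2 and 73.3% in Arid4b, which 1.79% and 0.874% of all starts exceeded. The excess of G over C there, (G - C)/(G + C) on the coding strand, was -0.18 in Agap2 and 0.11 in Arid4b, so the downstream stretch of Agap2 was richer in C and that of Arid4b richer in G (median of all starts 0.039). Of all starts, 97.7% exceeded the value of Agap2 and 23.9% that of Arid4b. This stretch held 18 runs of GGGG or longer and 28 of CCCC or longer in Agap2, and 17 and 8 in Arid4b. Farther into the genes the composition separated: the H4K20me1 peak of Agap2 had 53.6% GC, above the median peak (44.3%), and the 4 peaks of Arid4b had 37.7% to 39.7%, below it. The intronic Pol II S2P peaks shown above had 67.4% GC with 20 CG dinucleotides in Agap2 and 38.6% GC with 2 CG dinucleotides in Arid4b. These are descriptions of the sequence, and no binding or hybrid was measured on them.

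In the peak listed with Agap2, H4K20me1 was among the lowest in Ctrl and among the highest in sKO. Agap2 (ENSMUSG00000025422, chr10:127075284-127093169, plus strand, 17.9 kb) had a single H4K20me1 peak at chr10:127080600-127085399, which began 1.69 kb after the start of the main transcript, spanned exons 1 to 6 of 19 in part or whole, and was 14.3% exonic. It scored 53 and 62 in Ctrl, while the sKO libraries reached 314 and 338. The groups did not overlap, and their means of 57.5 ± 6.36 (Ctrl) and 326 ± 17.0 (sKO; SD, n = 2 each) stood in a ratio of 5.67. On the log2(score + 1) scale the change was 2.49 ± 0.38 (SE, limma adjusted p 1.04e-09). The groups were equally separated, with sKO above, in 96.5% of the 13750 genes tested, and 92.3% of them were called higher (adjusted p below 0.1 and a log2 fold change above 0.5), so neither sets Agap2 apart. Each library averages over all its cells, so more mark per cell and more cells with the mark cannot be told apart. The size of its change was far from the middle: the median gene rose by 1.11, Agap2 by 1.37 more than that, and 1.16% of genes rose further. With the libraries scaled to equal totals, where the median gene changed by 0.13 and 20.8% of genes were called higher, Agap2 remained called at 1.51 (limma adjusted p 1.63e-05).

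**Figure D1:**
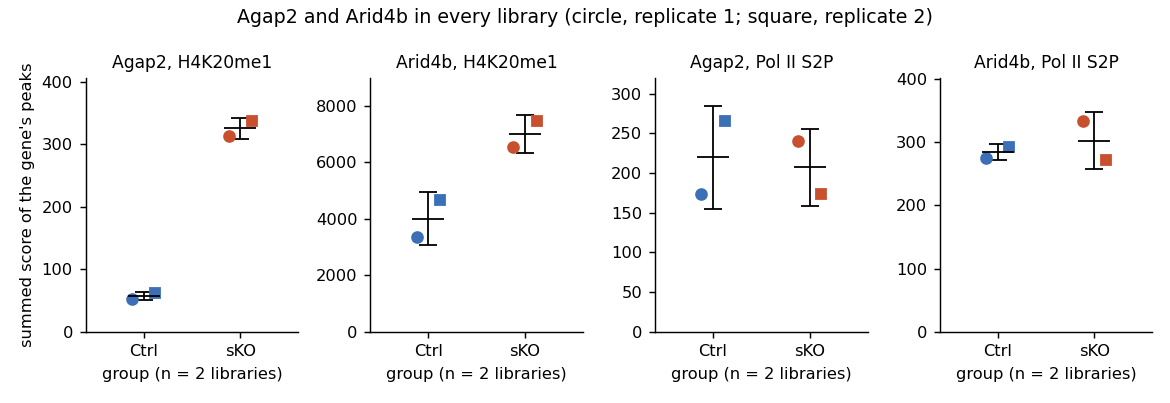
Summed score of all peaks of each gene (y axis, from 0) in the Ctrl and sKO libraries for H4K20me1 and Pol II S2P, with 1 symbol per library and a bar for the mean ± SD of 2 libraries. Agap2 H4K20me1 stood at 53 and 62 in Ctrl and at 314 and 338 in sKO, Arid4b H4K20me1 stood at 3349 and 4669 in Ctrl and at 6534 and 7482 in sKO, and the Pol II S2P libraries of the 2 groups overlapped for both genes.

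The change on Agap2 was also visible without any scale between libraries. The peak had 11.0 and 12.9 score units per kb in Ctrl and 65.4 and 70.4 in sKO, while the median peak had 22.4 in Ctrl and 49.0 in sKO. Within each library, 7.77% and 5.94% of the 41008 autosomal H4K20me1 peaks had a lower score per kb than the Agap2 peak in Ctrl, and 97.4% and 97.5% did in sKO. The mean rank thus moved from 6.85% ± 1.30 to 97.5% ± 0.016 (SD, n = 2 each, exact two-sided permutation p 0.333, the smallest that 2 against 2 libraries allow). The peak listed with Agap2 passed from well below the typical peak to well above it, which does not speak for the rest of the gene body.

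The H4K20me1 peak of Agap2 also rose more than the peaks listed with its neighbours. The gene lies in a dense stretch of chromosome 10, and all 6 neighbours with an H4K20me1 peak within 100 kb were called higher, as were 92.3% of all genes, with log2 fold changes of 0.87 to 2.25 and a median of 1.45, none above the 2.49 of Agap2. The nearest in size was Tspan31, a tetraspanin gene 5.02 kb upstream, with 79 and 95 (Ctrl) against 381 and 454 (sKO) (2.25 ± 0.33 SE). The upstream gene eef1akmt3, which encodes a methyltransferase of an elongation factor, had 113 and 124 (Ctrl) against 503 and 444 (sKO) (1.99). Os9, a gene for a lectin of endoplasmic reticulum quality control 2.48 kb downstream, had 439 and 562 (Ctrl) against 1219 and 1325 (sKO) (1.35). Cyp27b1, which encodes the enzyme that activates vitamin D, changed by 1.41, Slc26a10 by 1.50 and the phosphatase gene Ctdsp2 by 0.87. Most of some of these peaks lay outside the listed gene: the fraction inside was 0.3 for Ctdsp2, Cyp27b1 and Tspan31 and 0.4 for Slc26a10. The comparison with the neighbours' mean rests on listed peaks and was not repeated with all peaks over each gene body. The log2 score of Agap2 less the mean of the 6 neighbours, a quantity that no scaling of whole libraries alters, was -2.59 and -2.57 (Ctrl) against -1.66 and -1.65 (sKO). The difference of 0.92 was larger than the spread between replicates (pooled SD 0.0077), with an exact two-sided permutation p of 0.333, again the smallest possible.

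The single peak did not cover the whole gene. It took up 26.8% of the Agap2 body, and the peak listed with Os9 covered a further 33.4% at the 3' end, 22.6% of that peak, and the one listed with Tspan31 covered 2.88%. With all 3 overlapping peaks summed, an alternative chosen after seeing the data, the change was 1.65 ± 0.27 (SE, limma adjusted p 7.58e-09), which was 0.56 above the median gene. Counted this way, Agap2 no longer led its neighbours, since Tspan31 had 2.25, while the other 5 had 0.87 to 1.50.

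**Figure D2:**
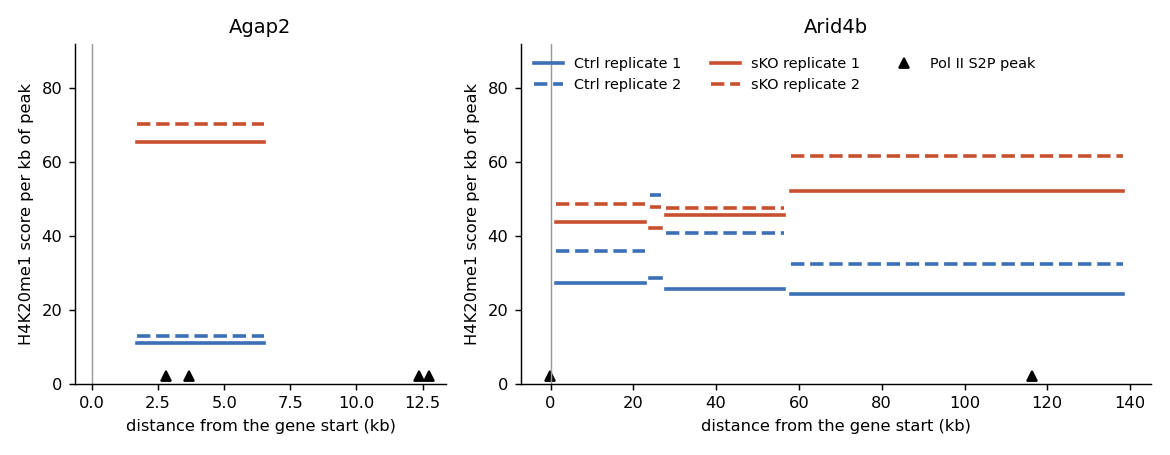
H4K20me1 score per kb (y axis) of each peak of Agap2 (left) and Arid4b (right) against the distance from the gene start in kb, with 1 line per library over the length of the peak and triangles at the centres of Pol II S2P peaks. The Agap2 peak rose from 11.0 and 12.9 to 65.4 and 70.4 per kb, and in Arid4b the libraries separated most in the last and longest peak (24.4 and 32.4 against 52.1 and 61.8).

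H4K20me1 on Arid4b was high in Ctrl and, by the deposited scores, rose less than on most genes. Arid4b (ENSMUSG00000039219, chr13:14063232-14199603, plus strand, 136 kb) was covered by its 4 peaks over 95.6% of its body. Their summed score was 3349 and 4669 (Ctrl) against 6534 and 7482 (sKO), without overlap, which gave 4009 ± 933 and 7008 ± 670 (SD, n = 2 each) and a ratio of 1.75. The log2 fold change was 0.82 ± 0.29 (SE, limma adjusted p 0.00554), called higher like 92.3% of the genes tested, 0.29 lower than that of the median gene, and exceeded by 75.8% of genes. Without sKO replicate 1 the value was 0.92 and without sKO replicate 2 it was 0.72. The spread of a single remaining sKO library is unknown, so these values do not show whether the call would hold. With equal library totals the direction turned, at -0.16 (limma adjusted p 0.00637), short of the limit of 0.5, where 5.69% of genes were called lower. Relative to the median gene the value was -0.29 under both scales, which a single factor per library can hardly alter. With quantile normalisation it was -0.023, so Arid4b was then close to the median gene.

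The increase within Arid4b was concentrated in the long peak at its 3' end. That peak (chr13:14121800-14201999, 80.2 kb, exons 4 to 24) had scores of 1957 and 2595 (Ctrl) against 4181 and 4955 (sKO), a change of 1.01 ± 0.29 (SE, limma adjusted p 0.000729). The first peak (chr13:14065200-14086599, 21.4 kb, within intron 1) had 583 and 770 (Ctrl) against 935 and 1040 (sKO), a change of 0.56 ± 0.27 (SE, limma adjusted p 0.0457). The third (chr13:14091800-14120199, 28.4 kb, with exon 3) had 729 and 1161 (Ctrl) against 1300 and 1353 (sKO), a change of 0.53 ± 0.27 (SE, limma adjusted p 0.0572). In these 3 peaks the groups did not overlap, and all 3 were called higher. The short peak between them (chr13:14087800-14090599, 2.8 kb) had 80 and 143 (Ctrl) against 118 and 134 (sKO), which overlapped, and its change of 0.23 was not called (limma adjusted p 0.578). With the Agap2 peak, 4 of the 5 H4K20me1 peaks were called higher and did not overlap between groups, against a background of 90% of the 41008 peaks called and 93.8% without overlap. Without Ctrl replicate 1 the first and the third peak of Arid4b fell to 0.36 and 0.19, the short peak to -0.18 and the last to 0.81. The 4 peaks ranged from 0.32 to 1.14 without sKO replicate 1 and from 0.14 to 0.89 without sKO replicate 2. With 1 library left in a group its spread is unknown, so these fits do not show whether a call would hold.

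The share of the summed Arid4b score that lay in the last peak was 58.4% and 55.6% in Ctrl and 64.0% and 66.2% in sKO. The mean rose from 57.0% ± 2.02 to 65.1% ± 1.58 (SD, n = 2 each), a gap of 8.10 percentage points that exceeded the spread between replicates (exact two-sided permutation p 0.333). The log2 ratio of the last to the first peak was 1.75 in both Ctrl libraries and 2.16 and 2.25 in sKO, a difference of 0.46 with the same exact p. Both are ratios within a library and so are not altered by its scale. With equal totals, the last peak changed by 0.03 (limma adjusted p 0.689), the first by -0.42 and the third by -0.45, and the short peak was called lower at -0.74 (limma adjusted p 0.0619), while the Agap2 peak stayed called higher at 1.51. On that scale 22.6% of peaks were called higher and 4.42% lower.

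The ranks of the Arid4b peaks moved opposite to that of Agap2 in the upstream part of the gene. In Ctrl, 91.3% and 87.1% of peaks had a lower score per kb than the first Arid4b peak, and in sKO 32.5% and 38.2% did. The short peak moved from a mean rank of 96.2% ± 3.83 to 30.5% ± 6.63 and the third from 90.8% ± 4.98 to 38.5% ± 5.93 (SD, n = 2 each). The last peak did not separate, with 83.2% and 77.0% in Ctrl and 75.1% and 89.6% in sKO (exact two-sided permutation p 1). The gene that was high for the mark in Ctrl was thus near or below the typical peak in sKO over its 5' part and stayed above it over its 3' part.

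**Figure D3:**
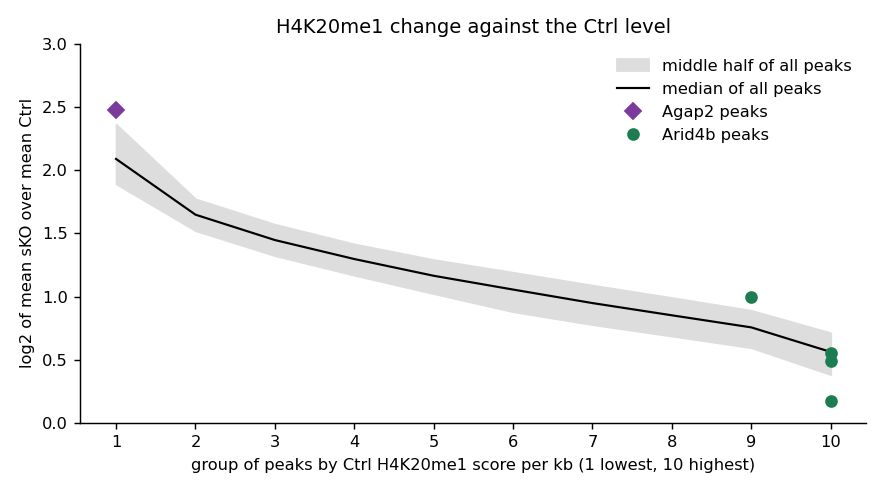
Change of H4K20me1 (log2 of the mean sKO score over the mean Ctrl score, y axis) for 41008 peaks in 10 groups of rising Ctrl score per kb (x axis), with the median as a line, the interquartile range as a band and the peaks of Agap2 (diamond) and Arid4b (circles). The median fell from 2.09 in group 1, where Agap2 lay at 2.48, to 0.56 in group 10, which held 3 of the 4 Arid4b peaks.

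The change in H4K20me1 followed the Ctrl level across all peaks, and both genes were at the ends of that range. When the 41008 peaks were divided into 10 groups by their Ctrl score per kb, the median change (log2 of the mean sKO score over the mean Ctrl score) was 2.09 in the lowest group, with an interquartile range of 1.89 to 2.36, and 0.56 in the highest, with a range of 0.38 to 0.71. Agap2 was in the lowest group, at 2.48, above that range. Of the Arid4b peaks, the first (0.55) and the third (0.49) were within the range of the highest group, the short peak (0.17) was below it, and the last, in the ninth group, was at 1.0 against a range of 0.59 to 0.89. The level and the change share the Ctrl libraries here. With the level from Ctrl replicate 1 and the change from Ctrl replicate 2, the median was 1.79 in the lowest group, with Agap2 at 2.38 and a range of 1.40 to 2.19, and 0.44 in the highest. The 2 genes' values are given beside these medians as a description, and how much the Ctrl level accounts for was not tested.

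The 2 neighbours of Arid4b with H4K20me1 peaks both rose more than Arid4b itself. Tbce, a gene for a tubulin-folding cofactor 23.6 kb upstream, had 987 and 1363 (Ctrl) against 2546 and 2572 (sKO) (1.14), and B3galnt2, which encodes a glycosyltransferase of alpha-dystroglycan, had 517 and 625 (Ctrl) against 1398 and 1429 (sKO) (1.31). The log2 score of Arid4b less their mean was 2.23 and 2.34 (Ctrl) against 1.79 and 1.96 (sKO), a difference of -0.40 that was larger than the spread (pooled SD 0.10, exact two-sided permutation p 0.333). The comparison of both genes within each library was larger still. Agap2 less Arid4b was -5.96 and -6.21 (Ctrl) against -4.37 and -4.46 (sKO), a difference of 1.66 (pooled SD 0.14, exact two-sided permutation p 0.333).

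**Figure D4:**
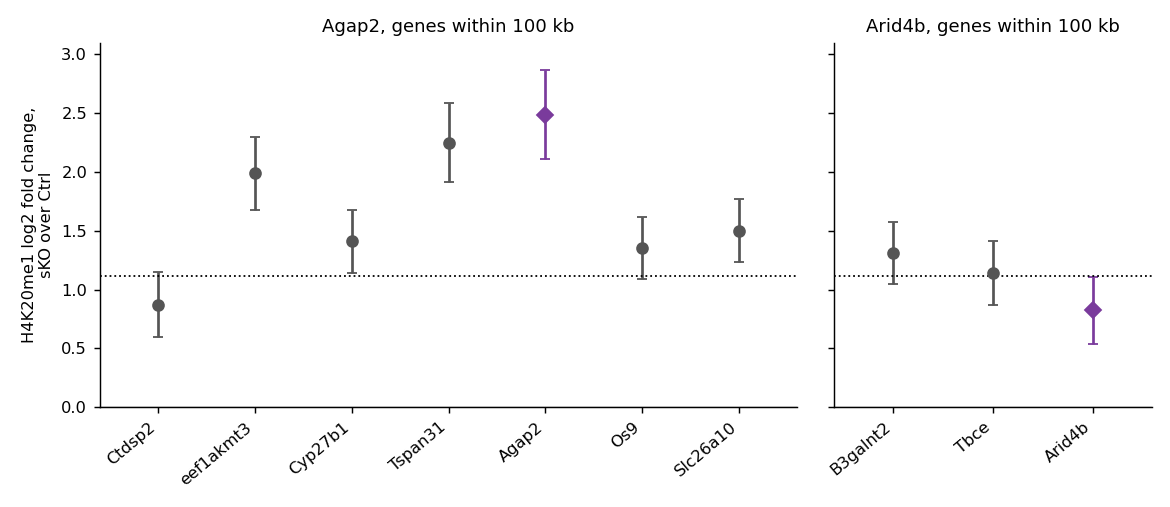
H4K20me1 log2 fold change of sKO over Ctrl (y axis, points with limma SE, n = 2 libraries per group) for Agap2, Arid4b (diamonds) and their neighbours within 100 kb in chromosomal order, with a dotted line at the median gene (1.11). By listed peaks, Agap2 at 2.49 was above its 6 neighbours (0.87 to 2.25), and Arid4b at 0.82 was below Tbce (1.14) and B3galnt2 (1.31).

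Pol II S2P did not separate the groups on either gene. Agap2 had 4 peaks, whose summed score was 174 and 266 (Ctrl) against 241 and 173 (sKO), or 220 ± 65.1 against 207 ± 48.1 (SD, n = 2 each). The change of -0.08 ± 0.41 (SE, limma adjusted p 1) changed sign with the library left out, from -0.38 without Ctrl replicate 1 to 0.23 without Ctrl replicate 2. Arid4b had 275 and 293 (Ctrl) against 334 and 271 (sKO), or 284 ± 12.7 against 302.5 ± 44.5 (SD, n = 2 each), a change of 0.08 ± 0.42 (SE, limma adjusted p 1). Leaving out sKO replicate 1 turned it to -0.07, and leaving out sKO replicate 2 raised it to 0.23. The same fit called 0% of the 8531 genes tested, of which 100 had an unadjusted p below 0.05, and its SE was about 0.4 on both genes. That SE depended on the scale between libraries. With equal totals the change was -0.21 ± 0.18 (SE) in Agap2 and -0.056 ± 0.16 (SE) in Arid4b. Neither gene was called on that scale, where 108 genes were called higher and 73 lower.

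The Pol II S2P peaks of the genes differed in place and height. On Arid4b, the main peak (chr13:14063203-14063971, 769 bases) sat on the start, with scores of 264 and 268 (Ctrl) against 325 and 261 (sKO). It held 91.5% to 97.3% of the summed score of the gene and was higher per kb than 99.2% to 99.8% of all autosomal Pol II S2P peaks. The start of Ggps1, a gene for an isoprenoid synthase on the opposite strand, lies under the same peak, so its signal cannot be assigned to one of the genes. The peak touched no H4K20me1 peak, the nearest of which began 1.41 kb after the start. The intronic peak printed above, 116 kb into the gene and inside its last H4K20me1 peak, had 11 and 25 (Ctrl) against 9 and 10 (sKO), below the minimum mean of 20 and thus not tested.

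On Agap2 no Pol II S2P peak lay at the start. The first peak, printed above, began 2.69 kb after it and had 20 and 28 (Ctrl) against 24 and 18 (sKO). The strongest (chr10:127082054-127083061, over exons 2 and 3) had 104 and 161 (Ctrl) against 140 and 94 (sKO), and held 54.3% to 60.5% of the gene's sum. Both lay inside the H4K20me1 peak of Agap2. The 2 others, in exons 18 and 19 near the 3' end, had 23 and 29 against 34 and 26 (chr10:127091181-127091394) and 27 and 48 against 43 and 35 (chr10:127091480-127091821), and lay inside the H4K20me1 peak listed with Os9. All 4 overlapped between groups and had changes of -0.18 to 0.20 with a limma adjusted p of 1. Of the 44587 Pol II S2P peaks tested, 0.0112% were called, and of the 5 peaks tested on the 2 genes 0 were. Across the autosomes, 64.4% of 50698 Pol II S2P peaks touched an H4K20me1 peak, 53.1% of the 6690 within 1 kb of a listed gene start and 73.0% of the 30566 farther from it, so a start peak outside the mark, as on Arid4b, was frequent.

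No neighbour was called for Pol II S2P, though some separated the groups. Near Agap2, 6 of 7 were tested and 0 were called, with changes of -0.10 in Ctdsp2 to 0.35 in Avil, a gene for an actin-binding protein. Of these 6, the groups did not overlap in Cyp27b1 (104 and 142 in Ctrl, 143 and 149 in sKO) and Tspan31 (592 and 706 in Ctrl, 815 and 720 in sKO), with sKO above, as in 9.41% of the 8531 genes tested. The cyclin-dependent kinase gene Cdk4 had 205 and 254 (Ctrl) against 268 and 223 (sKO). The lncRNA A730063M14Rik, 0.488 kb upstream of Agap2, had 11 and 5 (Ctrl) against 48 and 18 (sKO), with no overlap, but its mean was below the minimum of 50 and it was not tested. Near Arid4b, Tbce changed by 0.02 and B3galnt2 by 0.21, neither called, and Ggps1 (51 and 45 in Ctrl, 38 and 37 in sKO) and Hecw1 (30 and 20 in Ctrl, 49 and 43 in sKO) were below the minimum. Less their neighbours' mean, Agap2 had 0.15 and 0.52 (Ctrl) against -0.15 and -0.16 (sKO) (difference -0.49, pooled SD 0.18), and Arid4b had 2.16 and 2.14 (Ctrl) against 2.0 and 2.09 (sKO) (difference -0.11, pooled SD 0.044). In both cases the groups did not overlap (exact two-sided permutation p 0.333, the smallest possible). The untested A730063M14Rik, with 5 to 48, was 1 of the 7 genes in the first mean and Ggps1 and Hecw1 were in the second.

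**Figure D5:**
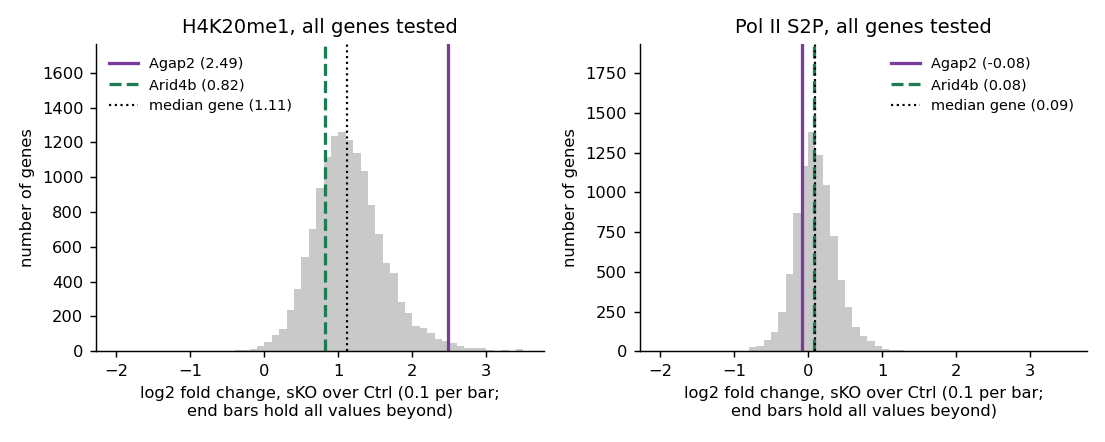
Number of genes (y axis) by log2 fold change of sKO over Ctrl (x axis) for H4K20me1 (13750 genes) and Pol II S2P (8531 genes), with lines at Agap2, Arid4b and the median gene. For H4K20me1, Agap2 (2.49) was in the upper tail and Arid4b (0.82) below the median gene (1.11), and for Pol II S2P both genes (-0.08 and 0.08) were near the median gene (0.09).

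Among the genes of the PI3K and AKT pathway in which AGAP2 acts, Agap2 had the largest H4K20me1 change, also at the 1.65 of all peaks over its body. Of 18 listed genes, 15 were tested, 13 were called higher against 92.3% of all genes, and the median change was 0.80, 0.31 less than that of the median gene. Its paralogues changed less: Agap1 by 0.65 (10687 and 14653 in Ctrl, 19050 and 20198 in sKO) and Agap3 by 0.40 (2251 and 3073 in Ctrl, 3367 and 3553 in sKO), the latter not called (limma adjusted p 0.167). The catalytic subunit gene Pik3ca (1.23) and the regulatory subunit genes Pik3r1 (1.35) and Pik3r2 (1.42) were called higher. Agap2, these 3 subunit genes and the kinase gene Akt2 (1.12) were the 5 members above the median gene. None of the 14 tested for Pol II S2P was called, with 0 at an unadjusted p below 0.05 as well.

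The genes of the partners and relatives of ARID4B had H4K20me1 changes below that of the median gene, as Arid4b did. Of 17 genes of the SIN3 complex, 12 were tested, 11 were called higher, against 92.3% of all genes, and 0 rose more than the median gene, with a median of 0.78. The scaffold gene Sin3b had the largest value (1.0) and Suds3, which encodes a complex subunit, the smallest (0.44, not called, limma adjusted p 0.110). The deacetylase genes Hdac1 (0.72) and Hdac2 (0.51) and the closest paralogue Arid4a (0.75, with 2863 and 3691 (Ctrl) against 5309 and 5599 (sKO)) were called higher. Of 13 genes with an ARID domain, 11 were tested, 9 were called higher, against the same 92.3%, and again 0 exceeded the median gene, from 0.22 in the SWI/SNF subunit gene Arid1a, not called, to 0.95 in the demethylase gene Kdm5b. For Pol II S2P, 12 SIN3 genes and 11 ARID genes were tested and limma called 0, with 0 at an unadjusted p below 0.05 in each list.

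Among the 13 genes that the study singled out as cancer-related genes with gained R-loops, a choice that drew on its own samples and is not independent evidence, all 13 were called higher for H4K20me1, against 92.3% of all genes, and their median change of 0.92 was 0.19 less than that of the median gene. By listed peaks Agap2 had the largest value, but with all peaks over the gene body its 1.65 was below Robo1. It was followed by the guidance receptor gene Robo1 (1.74), the transcriptional coactivator gene Wwtr1 (1.56) and the tumour suppressor gene Rb1 (1.35), and these 4 were above the median gene. Arid4b was among the other 9, which went down to 0.53 in Rasa1, a gene for a RAS GTPase-activating protein. For Pol II S2P, 10 were tested and limma called 0, from -0.08 in Agap2 to 0.90 in Rasa1.

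The genes with the profile nearest to Agap2 over the 8 libraries, by the Euclidean distance between log2(score + 1) values centred per antibody, were Zc3h12a (distance 0.179), Synpo2 (0.188) and 9130204K15Rik (0.189), against a median distance of 1.51 over 5849 genes tested for both antibodies. Zc3h12a, which encodes an RNase, had H4K20me1 scores of 114 and 149 (Ctrl) against 704 and 721 (sKO), and Pol II S2P scores of 271 and 417 (Ctrl) against 415 and 271 (sKO). Like Agap2, it had a large H4K20me1 gain in sKO (2.44) and overlapping Pol II S2P. Nearest to Arid4b were Rbms3 (0.126), Rbm27 (0.139) and Ktn1 (0.145), against a median distance of 0.651. Rbms3, a gene for an RNA-binding protein, had H4K20me1 scores of 2318 and 3262 (Ctrl) against 4651 and 5089 (sKO).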

How the data were processed

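H4K20me1 and Pol II S2P CUT&RUN libraries of cultured MuSCs were analysed from the 2 deposited peak tables. Per the methods, the authors trimmed reads with Trimmomatic 0.39, aligned them with STAR 2.7.3a to mm10 (GRCm38), kept unique alignments, removed duplicates with Picard 2.21.7 and normalised coverage to a spike-in, which the labels give as DNA of S2 (Drosophila) cells. SICER 0.0.41 and MACS2 2.1.1 are named in the submitters' processing notes. The deposited values are whole-number scores per peak and library, treated as normalised scores and not as counts. No counting interval is given, and the spike-in factors could not be checked. The study lists total and uniquely mapped reads for each library. These differed between libraries and were not used here. Peaks are listed with at most 1 gene, so signal on overlapping genes goes to a single one. Groups were taken from the genotype and antibody labels.

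Scores were summed per gene on the autosomes. log2(score + 1) was tested with limma 3.58.1 (R 4.3.3, lmFit and eBayes with trend) for genes with a mean above 50 and peaks with a mean above 20, and a fold change on this scale understates the change of low scores. Genes were called at a Benjamini-Hochberg adjusted p below 0.1 over all features and an absolute log2 fold change above 0.5. The fits were tried on simulated scores with a variance of 4 times the mean, in which 200 genes or peaks were changed. That simulation held no shift shared by all features, so it does not bear on calls made under the scale difference between these libraries. Ratios within a library were compared by exact two-sided permutation tests. The study tested counts with DESeq2, which these scores do not allow. Agap2, Arid4b, the neighbours, the pathway lists and the rule for named genes (all neighbours within 100 kb, the extremes of each list and the 3 nearest profiles) were chosen with earlier results of these data known. Sequences came from RefSeq (GRCm38.p6), in which both genes matched, and exons from GENCODE. Peak coordinates are those of the tables. Alternatives were equal totals, quantile normalisation, a pseudocount of 10, other filters, a replicate block, the peaks overlapping a gene body and each library left out. 1 listed gene is not reported here.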

Additional observations from a re-analysis of the deposited data

Results flagged for a closer look

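Among Pol II S2P peaks that were listed with no gene and so entered no sum, 1 of 4 within 100 kb of Agap2 separated the groups, with sKO above. It lay 1.44 kb past the 3' end of Agap2 (chr10:127094613-127094839), with 27 and 25 (Ctrl) against 52 and 29 (sKO), and its mean of 40.5 in sKO compared with 26 in Ctrl. The share of all Pol II S2P peaks that separated in this way was not counted. Among the 8531 genes tested it was 9.41%, but those are gene sums and not single peaks. Without the share over peaks, the separation does not set this peak or the next one apart.

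Near Arid4b, 1 of 2 such peaks did the same. It lay 22.5 kb before the gene (chr13:14040258-14040722), with 55 and 58 (Ctrl) against 116 and 61 (sKO), and its mean was 88.5 in sKO and 56.5 in Ctrl. In both peaks 1 of the sKO libraries was close to Ctrl. Both were part of the limma fit over single peaks, and their own results there are not given here.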

How the results depend on the processing

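Agap2 H4K20me1 stayed called higher under the 7 alternatives that kept all libraries, from 1.05 (quantile normalisation) to 2.49. The other filters and the replicate block leave its value of 2.49 unchanged by construction. Its leave-one-out values ran from 2.37 to 2.60, and such fits do not show whether the call would hold. Arid4b H4K20me1 did not stay called under all of the alternatives that kept all libraries: it was -0.16 with equal totals and -0.021 with quantile normalisation. It was 0.58 to 1.06 with a library left out, where the same limit holds. Genes called higher for H4K20me1 numbered 2855 with equal totals, 1422 with quantile normalisation and 5249 to 13376 with a library left out, and genes called lower 783, 1531 and 0 to 13. Of the 5 H4K20me1 peaks, 2 were called with equal totals and 1 to 5 with a library left out. Agap2 Pol II S2P ran from -0.38 to 0.23 with a library left out, with 0.23 for Ctrl replicate 2 left out and 0.16 for sKO replicate 2 left out. Arid4b Pol II S2P was -0.056 with equal totals, -0.0053 with quantile normalisation and -0.067 to 0.23 with a library left out. Pol II S2P genes called higher numbered 108 with equal totals, 112 with quantile normalisation and 1 with no filter, and genes called lower 73, 29, and 0 to 2 with a library left out. Why the values moved was not tested. The H4K20me1 comparisons with neighbours and between the genes kept their direction under the alternatives run for them. No alternative was run for the Pol II S2P comparisons with neighbours.

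Ctrl and sKO share replicate numbers that the labels do not explain, and with 2 pairs the pairing could not be judged. With the replicate block, Agap2 H4K20me1 was 2.49 and Arid4b 0.82, both still called, and 12718 genes were called higher, so no call of Agap2 or Arid4b changed.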
